A study of Mus musculus with 2 samples.

Results

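Cycling oligodendrocyte precursors were examined in the spinal cord of mice at postnatal day 4. They were chosen by their own UMIs (unique molecular identifiers, each of which tags 1 captured RNA molecule) from 1 library labelled SMA and 1 labelled Con. A barcode entered with 200 to 4000 detected genes and under 10% mitochondrial UMIs, and a barcode of the SMA library that is also listed in the Con library was left out. It then needed a UMI of at least 2 of Pdgfra, Cspg4, C1ql1, Lhfpl3, Pcdh15 and Matn4, and a UMI of at most 1 of Bmp4, Enpp6, Aqp4, Cx3cr1, Cldn5 and Dcn; cells that met this are called OPC-rule cells. The cycling ones also carried 3 or more summed UMIs of Top2a, Mki67, Cdk1, Birc5, Ccnb1, Cenpf, Ube2c, Hmmr, Tpx2 and Nusap1, called the rule genes here. This gave 620 cells in SMA and 614 in Con, 1234 of the 52340 barcodes of the series and of the 4599 OPC-rule cells.

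Both groups were mice of strain FVB that carry the human SMN2 transgene (hSMN22tg/0). SMA mice lacked both mouse Smn alleles (mSmn-/-) and Con mice kept 1 of them (mSmn+/-). Per the study's methods these were severe Taiwanese model mice and their littermates, and the cords of several animals were pooled into each library, so there was 1 library per group and no replicate. No test between the groups was therefore possible: every ratio below compares 2 libraries, and every interval is a 95% interval of counting error only. Intact mouse Smn1 cannot be read from these 3′ tags, which do not show whether the deleted part is present, and Smn1 stood at 75.2 CPM (UMIs of the gene scaled to a common total of the summed cells) in SMA and 68.4 CPM in Con members, a log2 ratio of 0.14 (-0.09 to 0.36).

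The libraries stood apart in ways that touch the members. The libraries list 8163 barcodes in common, and 559 of the 614 Con members have a barcode that is also listed in SMA, where that copy was left out. Of the Con barcodes within the gene and mitochondrial limits, 6567 of 10256 are shared in this way, and of all Con barcodes 8163 of 25419. By the rule no SMA member has a shared barcode. Xist, the RNA of the inactive X chromosome, had UMIs in 346 Con members and in 0 SMA members, where 0 UMIs allow at most 0.670 CPM, a level at least 1116-fold lower, while 357 SMA and 178 Con members had a UMI of a Y-chromosome gene. The sex of the pooled animals was not stated, and sex and genotype cannot be told apart over all members. Haemoglobin UMIs were over 5% of the UMIs in 15 SMA and 40 Con members. Depth was close: the median SMA member had 6877 UMIs and 2857.5 genes, the median Con member 7067 and 2917.

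Oligodendrocyte precursor cells (OPCs) are the dividing cells from which the myelin-forming oligodendrocytes arise, and they keep dividing in the early postnatal cord under mitogens such as PDGF, which acts through the receptor encoded by Pdgfra. A cell that divides passes from G1, when D-type cyclins with CDK4 and CDK6 release E2F factors from the RB proteins, into S phase, when replication origins fire and histones are made, and then through G2 into mitosis, when chromosomes are condensed, held at kinetochores and pulled apart. The inhibitors of the CDKN1 and CDKN2 families hold back the cyclin-dependent kinases, and an OPC that leaves the cycle can go on to turn on Gpr17, Myrf and then the myelin genes.

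The cells carried the OPC genes that the rule did not use. The transcription factor gene Olig1 had a UMI in 98.4% of SMA members and 96.9% of Con members, Olig2 in 74.7% and 74.6%, and Sox10 in 71.6% and 68.1%. In cells with at least 2 microglial genes and no rule-gene UMI, taken as background for free RNA, Olig1 had a UMI in 22.3% of SMA and 26.6% of Con cells, at median depths of 6086 and 6183 UMIs. Levels in members stood well above that background. The microglial cells could not be OPC-rule cells, and their rule limited OPC genes such as Pdgfra and Cspg4. Barcodes rich in OPC RNA were thus left out of the background, so part of this gap may follow from the choice of cells. With every cell thinned to 2000 UMIs the shares for Olig1 were 85.3% of Con members and 11.02% of the microglial cells. A UMI of all 6 rule OPC genes was present in 113 SMA and 143 Con members, and the least permitted number, 2, in 50 and 71.

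Other cell types left traces. The 6 genes limited by the rule had no UMI in 460 SMA and 401 Con members. Of the rest, the water-channel gene Aqp4 of astrocytes had a UMI in 101 SMA and 142 Con members, the microglial receptor gene Cx3cr1 in 34 and 23, and the endothelial junction gene Cldn5 in 15 and 21. Of the members, 56 SMA and 52 Con cells also met a rule for astrocytes. In droplet data such cells may hold RNA of 2 cells or free RNA, and this was not tested. No doublet caller was used beyond the limit of 4000 genes.

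The rule's threshold cut a continuous range. Members carried a median of 17 rule-gene UMIs in SMA (quartiles 7 and 36, maximum 153) and 13.5 in Con (5 and 29, maximum 172). Just outside the threshold, 142 SMA and 154 Con cells carried 2 such UMIs, and just inside it 68 and 82 carried 3. The summed level of 43 S phase genes, none of which the rule used, was 2160 CPM in SMA and 1837 CPM in Con cells with 2 UMIs, and 2803 and 2558 CPM in those with 3. The summed level of 45 further G2/M genes was 1779 and 1801 CPM just outside and 2426 and 2253 CPM just inside. The cells on the outer side thus already stood above those with 0 rule-gene UMIs, at 963.9 and 1006 CPM for S phase genes.

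Close to equal shares of the OPC-rule cells were cycling in the libraries. Thinned to 2000 UMIs, 18.01% of 2343 SMA cells (Clopper-Pearson 16.5 to 19.6) and 18.1% of 2178 Con cells (16.5 to 19.8) reached 3 rule-gene UMIs, and 36 and 42 shallower cells were left out. Without thinning the shares were 26.1% and 27.7%. The same cut was met by 7.91% of 139 SMA and 4.86% of 247 Con cells with at least 3 of 4 myelin genes and no OPC rule gene, cells that should not divide, at median depths of 8981 and 6626 UMIs. The share depends on the depth and the cut, and a share at one depth is not a fraction of dividing cells in the cord.

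Members spread over a wide range of S phase and G2/M RNA. After thinning to 2000 UMIs, members carried a median of 6 S phase UMIs in both libraries and a median of 13 G2/M UMIs outside the rule in SMA and 12 in Con. S phase UMIs outnumbered G2/M UMIs in 169 of 617 SMA and 196 of 612 Con members. Across cells of 1 library, which are not independent replicates, the Spearman correlation of both sums was 0.01 in SMA and 0.06 in Con, while that of the G2/M sum with the rule-gene sum was 0.80 and 0.81. At counts this sparse a correlation near 0 is no finding in itself, and the plot of both sums per cell shows the spread. The rule genes are themselves G2/M genes in large part, so the cut reads S phase less well: of cells with 0 rule-gene UMIs, 101 of 1197 in SMA (8.44%) and 107 of 1054 in Con (10.2%) reached the members' median of 6 S phase UMIs.

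**Figure D1:**
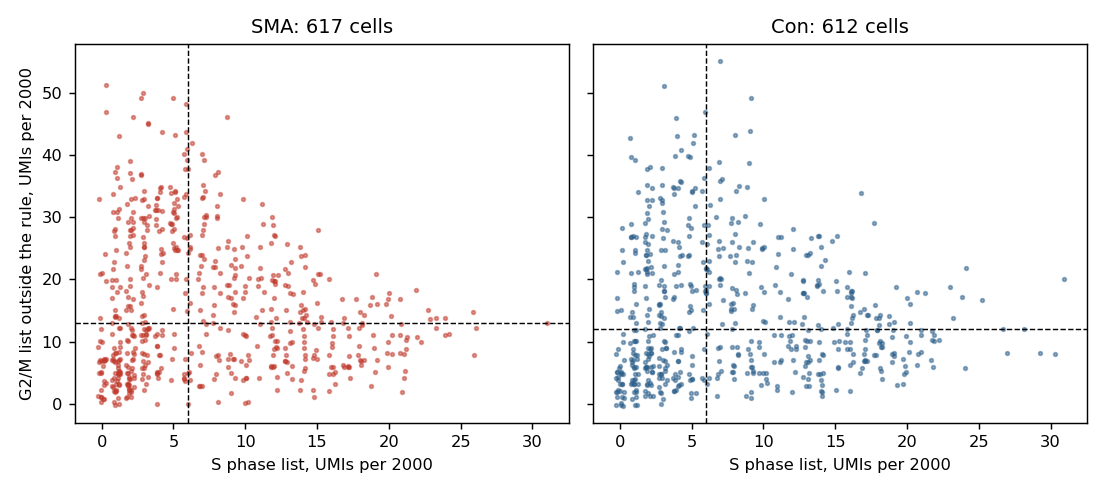
Each point is 1 member thinned to 2000 UMIs, with its UMIs of 43 S phase genes (x axis) and of 45 G2/M genes outside the rule (y axis), jittered slightly, in SMA (left, 617 cells) and Con (right, 612 cells). Dashed lines are the medians, 6 and 13 in SMA and 6 and 12 in Con; S phase UMIs outnumber G2/M UMIs in 169 and 196 of the cells.

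The gene lists took different courses along the number of rule-gene UMIs. The OPC-rule cells were split into bins of 0, 1 to 2, 3 to 5, 6 to 10, 11 to 20 and 21 or more such UMIs, which held 1223, 536, 130, 109, 107 and 274 SMA cells and 1077, 529, 161, 104, 133 and 216 Con cells. The summed level of 16 genes that license and fire replication origins was 300.9 CPM in SMA and 336.7 CPM in Con at 0 UMIs. It was at 872.8 and 1042 CPM at 3 to 5 UMIs, highest with 1033 CPM at 6 to 10 in SMA and with 1116 CPM at 11 to 20 in Con, and at 751.1 and 885.9 CPM at 21 or more. The S phase sum was highest at 11 to 20 UMIs, with 4227 CPM in SMA and 4815 CPM in Con, against 3722 and 3994 CPM at 21 or more, so in Con both sums were highest in the same bin. It did not climb bin by bin in Con, where it was at 3203 CPM at 3 to 5 and 2988 CPM at 6 to 10. The G2/M sum went from 1325 and 1331 CPM at 0 UMIs to 12650 and 12037 CPM at 21 or more, and each of its 45 genes was highest in the last bin in both libraries, which follows in part from the rule's own G2/M genes.

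Single S phase genes differed in the bin of their highest level. Of the 43, 21 in SMA and 31 in Con were highest at 11 to 20 UMIs, and 9 and 8 in the last bin, such as Rrm1, the other subunit of ribonucleotide reductase, at 145.1 and 167.2 CPM. The licensing gene Cdc6, which loads the MCM helicase, was at 45.4 CPM in SMA and 37.6 CPM in Con at 11 to 20 UMIs and at 14.1 and 15.7 CPM at 21 or more. Rrm2, a subunit of the reductase that makes deoxynucleotides, went from 12.7 and 14.9 CPM at 0 UMIs to 448.2 and 489.4 CPM at 11 to 20 and 410 and 449.7 CPM at 21 or more. Cdc6 and Rrm2 were thus highest before the last bin. Cdc20, an activator of the anaphase-promoting complex, went from 4.55 and 6.37 CPM at 0 UMIs to 340.6 and 363.1 CPM in the last bin. Aurkb, the kinase of the chromosomal passenger complex, went from 1.14 and 0.910 CPM to 181.4 and 189.9 CPM.

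The S phase order of the upper bins turned when cells were thinned and binned anew. Cells with more rule-gene UMIs are deeper, with a median of 7798.5 UMIs in SMA and 8498.5 in Con in the last bin against 5568.5 and 6348 at 3 to 5. The S phase sum at 21 or more over that at 3 to 5 was 0.39 in SMA and 0.32 in Con on the log2 scale. With every cell thinned to 2000 UMIs and binned on the thinned counts, where the last bin held only 43 and 24 cells, the same ratios were -0.92 and -1.02. In the thinned bins the origin sum was highest at 3 to 5 UMIs, with 1078 CPM in SMA and 1185 CPM in Con. The S phase sum was highest at 6 to 10, with 4718 and 4669 CPM, so the Con sums no longer shared a bin. Depth and the cells in each bin changed together there and cannot be told apart.

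**Figure D2:**
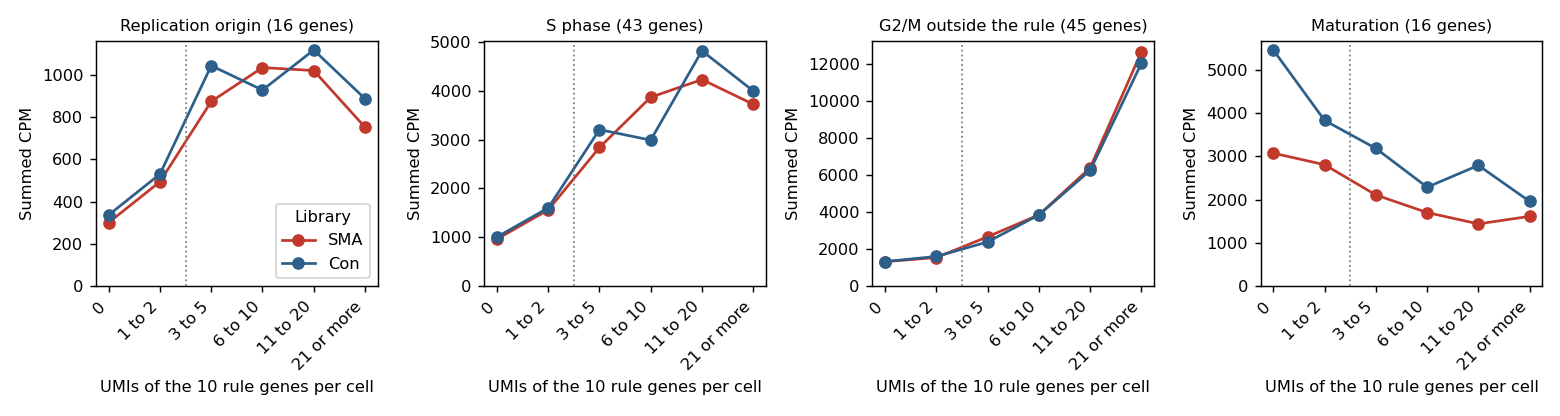
Summed CPM of 4 gene lists (y axes, linear) in OPC-rule cells grouped by their UMIs of the 10 rule genes (x axis), in SMA (red) and Con (blue), 1 point per bin and library without error bars; the dotted line is the threshold of 3. Replication-origin and S phase genes fall back in the last bin, G2/M genes are highest there (12650 and 12037 CPM), and maturation genes go from 3076 and 5460 CPM at 0 UMIs to 1615 and 1961 CPM.

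The promoters of 4 genes are shown because their genes belong to the G2/M and the helicase lists described above: Cdk1 and Ube2c of the rule, Cdc20 of G2/M, and Mcm6, a subunit of the replicative helicase. Cdk1 is the mitotic kinase and Ube2c the ubiquitin-conjugating enzyme that works with CDC20. Each sequence is the 250 bases before the transcription start, 5′ to 3′ on the gene's strand, from RefSeq on GRCm38.p6: Cdk1 at chr10:69352913-69353162 (minus strand), Ube2c at chr2:164769679-164769928 (plus), Cdc20 at chr4:118437344-118437593 (minus) and Mcm6 at chr1:128359706-128359955 (minus). Capitals mark matches on either strand to TTTGAA, the core letters of the CHR element known from G2/M promoters, to CCAAT (seen as ATTGG where it lies on the opposite strand), and to the E2F-type letters TTTGGCGC, TTTCGCGC, TTTCCCGC or TTTGCCGC and their reverse complements; adjoining or overlapping matches run together.
Cdk1: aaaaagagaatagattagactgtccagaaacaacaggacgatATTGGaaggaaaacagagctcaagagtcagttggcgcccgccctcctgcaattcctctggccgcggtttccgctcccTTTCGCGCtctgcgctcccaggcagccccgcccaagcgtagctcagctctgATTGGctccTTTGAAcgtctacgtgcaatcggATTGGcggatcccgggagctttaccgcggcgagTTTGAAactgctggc
Ube2c: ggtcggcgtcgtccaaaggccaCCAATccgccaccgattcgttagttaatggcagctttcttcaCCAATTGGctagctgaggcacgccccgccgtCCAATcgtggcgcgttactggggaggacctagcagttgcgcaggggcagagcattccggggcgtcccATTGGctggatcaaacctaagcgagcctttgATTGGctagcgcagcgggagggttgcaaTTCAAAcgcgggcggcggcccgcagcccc
Cdc20: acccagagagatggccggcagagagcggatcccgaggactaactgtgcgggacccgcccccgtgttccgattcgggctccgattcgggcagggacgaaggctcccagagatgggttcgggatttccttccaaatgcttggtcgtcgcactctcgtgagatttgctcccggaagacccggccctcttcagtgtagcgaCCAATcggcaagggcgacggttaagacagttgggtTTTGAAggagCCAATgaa
Mcm6: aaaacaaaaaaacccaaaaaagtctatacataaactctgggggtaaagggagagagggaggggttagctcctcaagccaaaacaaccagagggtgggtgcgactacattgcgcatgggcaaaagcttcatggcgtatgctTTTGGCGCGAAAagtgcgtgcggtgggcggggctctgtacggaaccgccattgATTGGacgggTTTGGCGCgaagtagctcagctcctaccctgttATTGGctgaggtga
Cdk1, Ube2c and Cdc20 held TTTGAA within 29 bases of the start (at 15, 29 and 18 bases before it, counted from the first base of the match), and Cdk1 a further one at 71. They held 3, 6 and 2 matches to CCAAT. Cdk1 also held 1 match to the E2F-type letters, at 131 bases before the start, and Ube2c and Cdc20 held 0. Mcm6 held no TTTGAA but 3 matches to the E2F-type letters, of which 2 overlap, and 2 to CCAAT.

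Shares over lists and over all promoters were counted in the table's whole window of 300 bases, 250 before and 50 after the start. Over the G2/M genes outside the rule, 39 of 45 had a promoter in the table, and 26 of these (66.7%) held TTTGAA, against 18.1% of all 27025 promoters. At least 2 CCAAT were held by 23 of the 39 (59.0%) against 12.2% of all. The E2F-type letters were held by 1 of the 39, against 2.32% of all. Among the rule genes, 6 of the 9 with a promoter in the table held TTTGAA. The corresponding shares for the S phase, origin and OPC lists are not given, since under 80% of their genes were in the table. No difference in promoter letters between phases was tested, and a match is a description of letters and not of a bound site.

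Members were next set beside the non-cycling OPC-rule cells, those with 0 rule-gene UMIs, of which there were 1223 in SMA and 1077 in Con. Since the rule split the cells by cycle genes, these values describe the members and support nothing further. In both libraries, 335 of 9155 genes (3.66%) were past 2-fold higher in members and 52 (0.568%) past 2-fold lower. Of the S phase list, 38 of 41 genes with enough UMIs were past 2-fold higher in both libraries, of the further G2/M list 40 of 43, of kinetochore and checkpoint genes 16 of 16, of condensin genes 8 of 8, of mitotic kinesins 10 of 10 and of origin genes 11 of 13.

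Outside the lists, the 10 highest ratios over non-cycling cells included those of Esco2, Prc1 and Aspm. Esco2, which acetylates cohesin in S phase, stood at 96.4 CPM in SMA and 79.8 CPM in Con members against 0.284 and 0.303 CPM in non-cycling cells, log2 ratios of 8.41 and 8.04. Prc1, which bundles the microtubules of the spindle midzone, stood at 255.4 and 209.3 CPM against 2.99 and 2.43 CPM. Aspm, a spindle-pole gene, had log2 ratios of 6.68 and 7.09. Cep55 (abscission), Melk, Neil3 (a DNA glycosylase), Mxd3, Knl1 (kinetochore scaffold) and Depdc1a were also among the 10 highest, and their ratios lay between 5.95 and 8.51. The non-cycling cells are at or near 0 for several of these genes, so the size of such ratios rests on few UMIs.

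Few OPC identity genes were past 2-fold between cycling and non-cycling cells in both libraries. Of the 12 OPC genes outside the rule, 0 were past 2-fold higher and 1, Neu4, was past 2-fold lower in both libraries, where 3.66% and 0.568% of all genes were. Olig2 stood at 227.7 CPM in SMA and 224.2 CPM in Con members against 219.2 and 229.6 CPM in non-cycling cells. Its log2 ratios were 0.05 and -0.03, so the level was close in dividing and non-dividing cells. Neu4, a sialidase gene that rises as OPCs start to differentiate, stood at 8.48 and 16.8 CPM against 44.2 and 58.7 CPM, log2 ratios of -2.38 and -1.81.

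Of the 14 maturation genes with enough UMIs, 3 were past 2-fold lower in members in both libraries, where 0.568% of all genes were, and 0 were past 2-fold higher. Gpr17, a receptor gene of committed precursors, stood at 135.1 CPM in SMA and 142 CPM in Con members against 286.8 and 348.6 CPM in non-cycling cells, log2 ratios of -1.09 and -1.30. Sirt2, a deacetylase gene of the oligodendrocyte lineage, stood at 203.8 and 277.8 CPM against 510.6 and 813.3 CPM. The third was Myrf, the regulator of myelin genes, at 6.92 and 6.89 CPM against 22.8 and 25.6 CPM. Of the genes outside the lists, Tmem88b had the lowest ratios, -2.34 in SMA and -2.31 in Con, and Dusp15, a phosphatase gene of the lineage, stood at 31.5 and 27.1 CPM against 88.6 and 79.3 CPM. The rule limits Bmp4 and Enpp6, genes of committed precursors, in members and non-cycling cells alike.

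The CDK inhibitors went different ways. Cdkn1c (p57), an inhibitor gene on chromosome 7 (GRCm38, 143458339 to 143461050, minus strand), stood at 114.3 CPM in SMA and 148.2 CPM in Con members against 228.1 and 330 CPM in non-cycling cells. It was highest in the bin of 0 rule-gene UMIs in both libraries. Cdkn2c (p18) went the opposite way, from 2.84 and 4.85 CPM at 0 UMIs to 145.6 and 133.1 CPM at 21 or more. Cdkn2d (p19, of the INK4 inhibitors) stayed between 55.7 and 73.3 CPM up to 10 UMIs and reached 267.6 and 239.2 CPM at 21 or more. Both INK4 genes are thus highest in the cells richest in G2/M RNA.

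Cyclins and their partners followed the phases. Ccne1, the cyclin of S phase entry, was highest at 11 to 20 UMIs, with 82.7 CPM in SMA and 108.6 CPM in Con, as was Mybl2, a partner of the DREAM subunits, with 16.01 and 28.0 CPM. Ccna2 went from 2.28 and 1.97 CPM at 0 UMIs to 366 and 337.1 CPM in the last bin, and Plk1, a mitotic kinase, from 0.569 and 0.455 CPM to 147.4 and 148.8 CPM. The D-type cyclin Ccnd1 (chromosome 7, 144929931 to 144939925, minus strand) had no such course: it stayed between 177.4 and 223.9 CPM over the SMA bins and between 225.6 and 291.8 CPM over the Con bins. Dividing and non-dividing OPC-rule cells thus held this G1 cyclin at like levels.

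Against other dividing glia of the same libraries, the members held more Ccnd1, Ccnd3, Cdk4 and Cdkn1c. Cells with 3 or more rule-gene UMIs and a UMI of at least 2 of 6 astrocyte or 6 microglial genes numbered 303 and 204 in SMA and 367 and 133 in Con. None of them was an OPC-rule cell, so no cell was counted on both sides of a ratio. Each held a UMI of at most 1 of Pdgfra, Cspg4, C1ql1, Bmp4, Enpp6, Cldn5, Dcn and a marker of the other type. That marker was Cx3cr1 for astrocyte-rule cells and Aqp4 for microglia-rule cells. Ccnd1 stood at 186.2 CPM in SMA and 251.5 CPM in Con members, at 44.6 and 28.6 CPM in cycling astrocyte-rule cells and at 65.3 and 75.5 CPM in cycling microglia-rule cells. The log2 ratio of members over astrocyte-rule cells was 2.06 (1.78 to 2.36) in SMA and 3.14 (2.83 to 3.46) in Con. Without the upper limit on genes per cell, which cuts deep cells of each type, the same ratios were 1.5 and 1.85.

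Ccnd2 did not share this order. It stood at 57.8 CPM in SMA and 69.9 CPM in Con members against 63.1 and 56.8 CPM in astrocyte-rule cells, log2 ratios of -0.13 (-0.42 to 0.17) and 0.30 (0.04 to 0.57). Over microglia-rule cells, at 15.3 and 10.4 CPM, the ratios were 1.92 (1.34 to 2.54) and 2.75 (1.92 to 3.72). Cdk4 stood at 479.1 and 545 CPM in members, 239.8 and 216.1 CPM in astrocyte-rule cells and 227.6 and 255 CPM in microglia-rule cells. Ccnd3 stood at 159.4 and 182 CPM, 73.0 and 68.7 CPM, and 36.9 and 45.1 CPM in the same order. Its log2 ratios were 1.13 and 1.41 over astrocyte-rule cells and 2.11 and 2.01 over microglia-rule cells.

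Of the mitotic genes, Ccnb2 was close between the glia and Cdc25c was not. Ccnb2, the cyclin B2 gene, was within its counting interval of astrocyte-rule cells in both libraries, with log2 ratios of 0.12 (-0.05 to 0.29) and -0.09 (-0.26 to 0.09). Cdc25c, the phosphatase that activates CDK1, stood at 81.3 CPM in SMA and 67.3 CPM in Con members against 40.2 and 32.5 CPM in astrocyte-rule and 22.7 and 19.1 CPM in microglia-rule cells. Cdkn1a was lower in members than in either: the log2 ratio to astrocyte-rule cells was -1.24 (-1.42 to -1.07) in SMA and -0.86 (-1.12 to -0.61) in Con, and to microglia-rule cells -2.06 and -2.40. Cdkn1c was higher in members, with ratios to astrocyte-rule cells of 2.16 (1.78 to 2.55) and 1.75 (1.49 to 2.02). The share of cells in each phase was not matched between the 3 types.

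**Figure D3:**
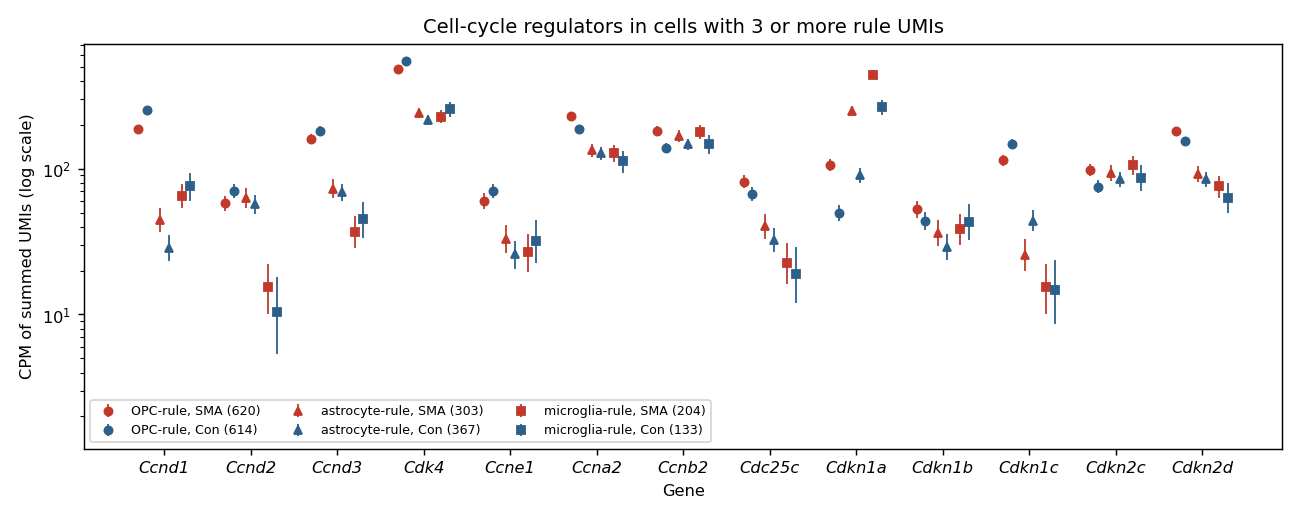
CPM (log scale) of 13 cell-cycle regulators in cells with 3 or more rule-gene UMIs that met the rule for OPCs (circles), astrocytes (triangles) or microglia (squares), in SMA (red) and Con (blue), with 95% Poisson intervals and cell numbers in the legend. Ccnd1 and Cdkn1c are highest in the OPC-rule cells in both libraries, Cdkn1a is lowest there and Ccnb2 is close in the 3 types.

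Between the libraries, the members' cell-cycle genes differed little. Of 8540 genes with at least 100 UMIs over both libraries, 236 (2.76%) were past 1.5-fold higher in SMA and 143 (1.67%) past 1.5-fold lower, and the median log2 ratio was 0.03. The order of these counts depends on the settings: it was 165 higher and 222 lower with totals that leave out haemoglobin and mitochondrial genes, 215 and 260 without the upper gene limit, and 174 and 197 among members of at most 5% haemoglobin UMIs. Of the 43 S phase genes 0 were past 1.5-fold in either direction, with a median of -0.08, and of the 45 further G2/M genes 0, with a median of 0.19. That median lay between 0.04 and 0.21 over the alternatives tried, and 38 of the 45 genes were above 0, beside 4648 of all 8540. The value of 0.04 came from members with a Y UMI and no Xist UMI, where 25 of the 45 were above 0. Since the cells were chosen by G2/M genes, and SMA members carried more rule-gene UMIs, the G2/M values are not independent of the choice.

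Within these lists, helicase and origin genes lay mostly below 0 and several mitotic genes above it, none past 1.5-fold except Kif14. Mcm5, a helicase subunit, stood at 64.3 CPM in SMA and 96.0 CPM in Con, a log2 ratio of -0.58 (-0.80 to -0.36), the lowest of the S phase list. Ung, a uracil-DNA glycosylase gene, followed with -0.56 (-0.90 to -0.22), while Ccne2 stood highest with 0.46 (0.09 to 0.84). The 14 origin genes with enough UMIs had a median of -0.15. At the other end, Hmgb2, a chromatin protein gene, stood at 1672 CPM in SMA and 1242 CPM in Con, a ratio of 0.43 (0.38 to 0.48), and Cenpa, the centromeric histone H3 gene, at 576.7 and 448.2 CPM, a ratio of 0.36 (0.28 to 0.45). The kinetochore, condensin and kinesin medians were 0.12, 0.12 and 0.23, and of their genes Kif14 alone was past 1.5-fold, at 17.0 and 10.97 CPM.

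Among the 33 cycle regulators with enough UMIs, 1 was past 1.5-fold higher in SMA, beside 2.76% of all genes, and 0 lower, so the count is near the background. The 1 gene was Cdkn1a, described with the p53 targets. Ccnd1 stood at 186.2 CPM in SMA and 251.5 CPM in Con, a log2 ratio of -0.43 (-0.56 to -0.30) that lay between -0.51 and -0.34 over the alternatives. Cdkn1c was also lower in SMA, with -0.38 (-0.54 to -0.21), and Cdkn2c higher, with 0.37 (0.16 to 0.58). None of these 3 reached 1.5-fold.

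Most identity and progenitor genes were within 1.5-fold between the libraries. Over all genes 2.76% were past it higher in SMA and 1.67% lower, against which the single genes named here are read. The 12 OPC genes outside the rule had a median log2 ratio of -0.01, and Neu4 alone was past the fold, at 8.48 CPM in SMA and 16.8 CPM in Con (-0.98, -1.58 to -0.41). Among members of at most 5% haemoglobin UMIs Neu4 was not past it (-0.54, -1.18 to 0.09). Of 16 progenitor genes, Dll3, a Notch ligand gene, was past the fold, at 28.8 and 51.4 CPM (-0.84, -1.16 to -0.52), and the median was -0.09. Of 9 receptor genes Erbb4, a neuregulin receptor gene, was past it, at 23.7 and 15.7 CPM (0.59, 0.15 to 1.04). Of the 6 OPC genes the rule used, C1ql1 alone was past the fold, at 158.7 CPM in SMA and 273.5 CPM in Con (-0.78, -0.92 to -0.65), and Pdgfra stood at 403.2 and 375.9 CPM. The 7 genes of the SMN complex, which assembles spliceosomal snRNPs, had a median of 0.04 and lay between -0.28 (Gemin2) and 0.28 (Ddx20).

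Of 13 measured maturation genes 2 were past 1.5-fold lower in SMA members, beside 1.67% of all genes, and 0 higher, with a median of -0.27. Mbp, encoding myelin basic protein, stood at 408.3 CPM in SMA and 802.7 CPM in Con members, a log2 ratio of -0.98 (-1.06 to -0.89). A UMI of Mbp was present in 69.2% of SMA and 83.1% of Con members, and in 59.8% and 73.55% of the microglial cells taken as background. Thinned to 2000 UMIs, the shares were 37.8% and 48.2% of members and 35.6% and 46.4% of those microglial cells, close to the background in each library, and no difference in expression is read from them. In non-cycling cells, where 320 of 9968 genes (3.21%) were past 1.5-fold lower, 8 of 15 maturation genes were, with a median of -0.67. With SMA barcodes that are also listed in Con kept, the Mbp ratio was -0.60.

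Many histone genes were higher in SMA members. Of 67 replication and related histone genes, a list written after values were seen, 17 had enough UMIs, and 13 of these were past 1.5-fold higher in SMA (beside 2.76% of all genes) and 0 lower, with a median log2 ratio of 0.82 and 17 above 0. Their summed level was 2099 CPM in SMA and 1062 CPM in Con. The median lay between 0.63 and 0.84 over the alternatives. Most mRNAs of replication-dependent histones end in a stem-loop and not in a poly(A) tail, so a 3′ poly(A) library catches a part of them only.

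The ratios varied widely between histone genes. Hist1h2bc (ENSMUSG00000018102, chromosome 13, 23684199 to 23692908, plus strand), an H2B gene, stood at 406.3 CPM in SMA and 83.5 CPM in Con, a log2 ratio of 2.28 (2.12 to 2.44), with a UMI in 76.6% and 36.2% of members. Hist1h1c, a linker histone gene in the same cluster (chromosome 13, 23738808 to 23740367, plus strand), stood at 140 and 46.9 CPM (1.58, 1.35 to 1.81). Hist1h4i (H4) had the same ratio, at 55.4 and 18.5 CPM, and Hist1h4h stood at 23.0 and 6.02 CPM (1.93, 1.32 to 2.59). By contrast, Hist1h1b, a linker histone gene with a steep course along the cycle, stood at 314.1 and 225.7 CPM (0.48, 0.36 to 0.59) and Hist1h1e at 92.2 and 80.3 CPM (0.20, -0.01 to 0.41). Reads may be split between near-identical histone genes, so single members of this family are uncertain.

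The higher Hist1h2bc level was also present outside dividing OPC-rule cells. Non-cycling ones stood at 197.8 CPM in SMA and 66.1 CPM in Con, cycling astrocyte-rule cells at 861.8 and 117.3 CPM and cycling microglia-rule cells at 469.5 and 75.5 CPM. Along the bins it went from 197.8 CPM at 0 rule-gene UMIs to 475.4 CPM at 21 or more in SMA, and from 66.1 to 80.6 CPM in Con. Among members with a Y-chromosome UMI and no Xist UMI, 357 in SMA and 155 in Con, the ratio was 2.11 (1.83 to 2.40). With shared SMA barcodes kept it was 2.18. The size is thus nearly as large within members that carry Y RNA. Of 7 histone genes with enough UMIs in non-cycling OPC-rule cells, 4 were past 1.5-fold higher in SMA and 1 past it lower. Over all genes the shares there were 2.12% and 3.21%, and the histone median was 0.83.

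Of the p53 target list, 3 of 13 genes with enough UMIs were past 1.5-fold higher, beside 2.76% of all genes, and 0 lower, with a median of 0.23. Cdkn1a (ENSMUSG00000023067, chromosome 17, 29090976 to 29100727, plus strand), which encodes the CDK inhibitor p21, stood at 105.6 CPM in SMA and 49.7 CPM in Con members, a log2 ratio of 1.09 (0.86 to 1.32), with a UMI in 34.2% and 20.8% of cells. Bbc3, which encodes the pro-apoptotic protein PUMA, stood at 22.6 and 10.1 CPM (1.16, 0.64 to 1.69), and Ccng1 (cyclin G1) at 23.4 and 13.8 CPM (0.77, 0.31 to 1.24). Other targets were closer: Bax, a pro-apoptotic gene, had a ratio of 0.23 (0.14 to 0.33) and Mdm2, the ubiquitin ligase of p53, 0.14 (-0.15 to 0.42).

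The p21 gene took a different course along the bins in each library. In non-cycling cells it stood at 120.1 CPM in SMA and 35.2 CPM in Con, a log2 ratio of 1.77, and over the bins it lay between 89.8 and 120.1 CPM in SMA, highest at 0 UMIs. In Con it was at 32.3 CPM at 1 to 2 UMIs, higher in each later bin and highest at 21 or more, with 60.1 CPM. Members over non-cycling cells stood at -0.19 (-0.35 to -0.02) in SMA and 0.50 (0.23 to 0.77) in Con. In non-cycling cells, where 211 of 9968 genes (2.12%) were past 1.5-fold higher, 4 of 15 p53 targets were, with a median of 0.40. Among members with Y RNA and no Xist, the Cdkn1a ratio was 0.73 (0.39 to 1.08), from 122.1 CPM in SMA and 73.7 CPM in Con, and the list's median was -0.06 over the 9 genes with enough UMIs there. Over the same 13 genes as in all members it was 0.13, with 7 above 0, so its value depends on which genes are counted. Among these members Bbc3 had a ratio of 1.56 (0.64 to 2.63), which rests on 72 SMA and 11 Con UMIs, and Ccng1 one of 0.56 (-0.20 to 1.38), below 1.5-fold and with an interval that holds 0. In non-cycling cells with Y RNA and no Xist, Cdkn1a stood at 2.10 (1.68 to 2.55), Bbc3 at 0.91 (0.35 to 1.52) and Ccng1 at 0.65 (0.08 to 1.25), and the median of the 15 targets was 0.48.

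**Figure D4:**
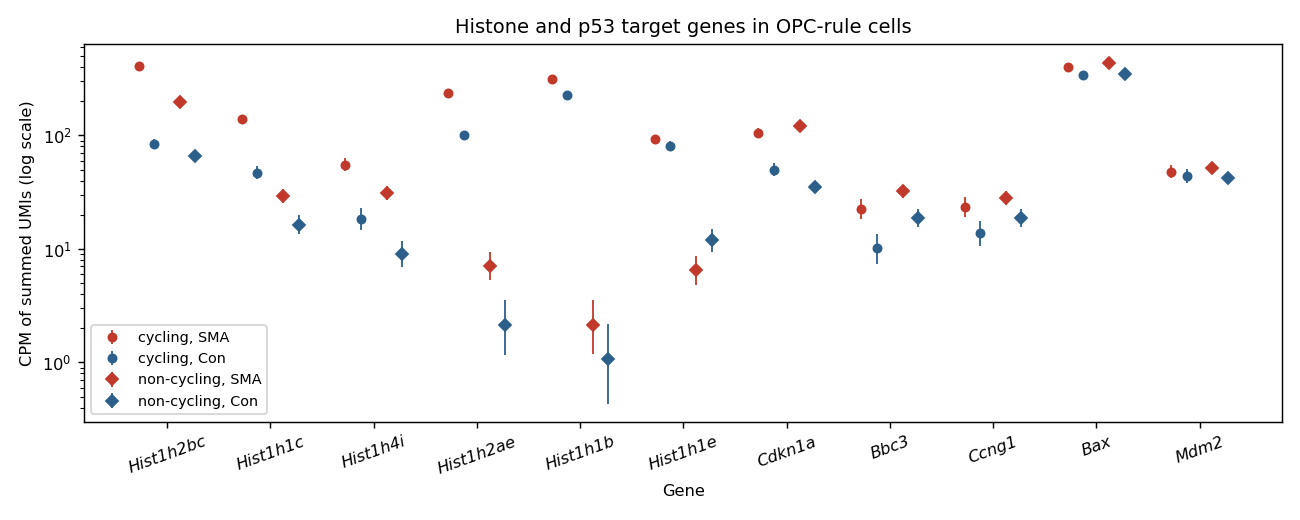
CPM (log scale) of 6 histone and 5 p53 target genes in cycling (circles) and non-cycling (diamonds) OPC-rule cells of SMA (red) and Con (blue), with 95% Poisson intervals. Hist1h2bc and Cdkn1a are higher in SMA in both kinds of cell (406.3 against 83.5 CPM and 105.6 against 49.7 CPM in cycling cells), while Mdm2 lies close.

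Dissociation of tissue can raise genes of the immediate early response. Of 9 such genes with enough UMIs, 2 were past 1.5-fold higher in SMA members, beside 2.76% of all genes: Fosb at 144 CPM in SMA and 76.0 CPM in Con (0.92, 0.73 to 1.11) and Junb at 580.5 and 322.3 CPM (0.85, 0.76 to 0.94). The list's median was 0.36. Fos stood at 1418 and 961.1 CPM (0.56, 0.51 to 0.62), and Dusp1 went the other way, at 68.5 and 98.1 CPM.

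**Figure D5:**
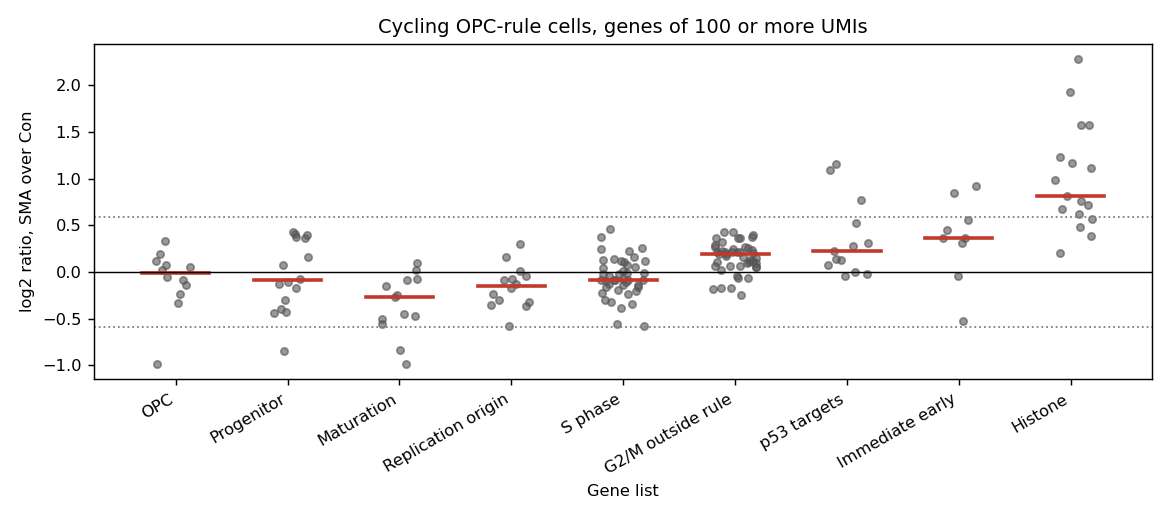
Log2 ratios of SMA over Con CPM in members (y axis) for genes with at least 100 UMIs, 1 point per gene, grouped by list (x axis); red bars are list medians and dotted lines 1.5-fold in either direction. Of the lists plotted, histone genes have the highest median (0.82) and maturation genes the lowest (-0.27), and no S phase or G2/M gene lies past 1.5-fold.

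Apart from histone genes, the largest ratios by the rule for named genes belonged mostly to genes known from other cell types. Highest in SMA were the cytokine genes Il1b, at 44.7 CPM in SMA and 5.59 CPM in Con (3.00, 2.40 to 3.65), Tnf (2.42) and Il1a (1.55), the chemokine genes Ccl4 (1.88) and Ccl3 (1.76), and Spp1 (2.08), which encodes osteopontin. These genes are known from microglia. Of Ccl4 UMIs, 83.1% in SMA and 86.2% in Con lay in the 10 members with most. The 4 genes with enough UMIs of the microglia list were each past 1.5-fold higher in SMA members, beside 2.76% of all genes, but 1 of them is Cx3cr1, which the rule limits. In non-cycling cells 1 of 5 was past it higher and 1 lower, with a median of 0.15, beside 2.12% and 3.21% of all genes. In the 460 SMA and 401 Con members with no UMI of the 6 limited genes, the ratio of Il1b was 0.82 (-0.86 to 2.72), of Tnf 0.56 (-1.80 to 3.25), of Ccl3 0.31 (-0.97 to 1.64), of Ccl4 0.74 (0.04 to 1.47), of Il1a 1.82 (-0.50 to 5.10) and of Spp1 -0.69 (-2.32 to 0.85). Without the upper gene limit the ratios were 1.83 for Il1b, 0.42 for Tnf, 1.03 for Il1a, 0.98 for Ccl4, 0.80 for Ccl3 and 0.62 for Spp1.

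Lowest outside Xist, Y-chromosome and haemoglobin genes were genes of muscle-walled vessels, matrix, endothelium and red cells. Tagln and Acta2, genes of the contractile apparatus of smooth muscle, stood at 2.01 and 7.37 CPM in SMA and 42.2 and 71.4 CPM in Con, log2 ratios of -4.39 and -3.28. The ratio of Tagln was -2.85 without the upper gene limit and -5.94 among members with no UMI of the limited genes, there on 3 SMA and 163 Con UMIs. Fn1 (fibronectin) stood at -2.82, Mfap4 at -2.76, Pglyrp1 at -2.21, Cldn5 at -2.18 and Alas2, an enzyme gene of haem synthesis in red cells, at -2.04, and Ctla2a, Isg20 and Ube2l6 lay between -1.89 and -1.35. Markers of these cell types did not all go the same way. Of the 2 vessel-wall list genes with enough UMIs, Acta2 was past 1.5-fold lower and Rgs5, a pericyte gene, past it higher (0.63). Of 4 fibroblast list genes, 2 were past it lower and 0 higher, and Col3a1 stood at -0.15. Over all genes the shares were 1.67% lower and 2.76% higher. Summed haemoglobin RNA was at 26565 CPM in SMA and 66295 CPM in Con, of which 96.0% and 98.4% lay in the members with over 5%. Of the 10 genes, Pglyrp1 and Ctla2a turned direction in members with no UMI of the 6 limited genes (0.09 and 0.19), and Isg20 in members with at most 5% haemoglobin UMIs (0.53), where Ube2l6 was no longer past 1.5-fold (-0.30, -1.01 to 0.41) and Alas2 stood at -1.38 on 2 and 5 UMIs. With 5 or more rule-gene UMIs required, Ctla2a stood at -0.25, Pglyrp1 at -0.98 and Cldn5 at -1.13. Among members with a Y UMI and no Xist UMI, Fn1 (1.17), Pglyrp1 (2.17), Cldn5 (2.55), Ctla2a (0.43) and Isg20 (0.17) turned, and Tagln stood at -1.37, Acta2 at -1.15, Alas2 at -0.79, Ube2l6 at -0.53 and Mfap4 at -8.22. Several of these subset ratios rest on few UMIs. With shared SMA barcodes kept, Tagln stood at -1.89, Acta2 at -1.5, Fn1 at -1.81, Ctla2a at -0.86, Pglyrp1 at -0.76 and Cldn5 at -0.63.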

How the data were processed

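Single-cell RNA-seq was carried out on 1 library labelled SMA and 1 labelled Con, grouped by their labels. The deposited files hold raw UMI counts for 32285 genes per barcode of 10x Genomics 3′ libraries; the authors counted with Cell Ranger, version 4.0.0 per the file headers (the study's methods give another version); the processing notes also name Seurat 3.2.2 and mm10. They are uncorrected for library size. The barcodes had not been cut to the authors' limits on genes and mitochondrial UMIs, which 13296 of 26921 SMA and 10256 of 25419 Con barcodes met. The filters stated in the opening followed the authors' limits (200 to 4000 genes, under 10% mitochondrial UMIs); doublets were treated by the upper limit only. Library totals were 85872075 and 97894084 UMIs, members' totals 4479283 and 4647980.

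UMIs were summed over cells and expressed as CPM. Genes with at least 100 UMIs over the cells compared were read against a fixed fold (1.5-fold between libraries, 2-fold in both libraries between cycling and non-cycling cells). With 1 library per group no p-value was computed. Log2 ratios have exact conditional binomial intervals, shares Clopper-Pearson and sums Poisson intervals, at the 95% level, for counting error only; a count of 0 was taken as at most 3 counts. Thinning drew 2000 UMIs per cell without replacement. Ratios and intervals were tested on simulated data. Python 3.11.15, numpy 2.4.6, scipy 1.17.1, pandas 2.3.3 and matplotlib 3.10.9 were used. Gene positions are from GENCODE M21 (GRCm38), promoters from RefSeq GRCm38.p6. Symbols were taken from the files.

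The members and gene lists were chosen with earlier results of these data known. Beyond list members, the genes named are the 10 highest and 10 lowest log2 ratios of SMA over Con that keep their sign with cells weighted equally, over cells of 5000 UMIs or more, without the upper gene limit and at a mitochondrial limit of 20%, and the 10 highest and lowest of cycling over non-cycling cells outside the lists. Xist, Y-chromosome and haemoglobin genes were left out of the ranking of SMA over Con. The histone list and the subsets by Y and Xist RNA, by haemoglobin and by limited genes were chosen after seeing the data. Results that name certain genes are not reported here.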

Additional observations from a re-analysis of the deposited data

Results flagged for a closer look

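In 15 cases a gene's ratio had opposite signs in the groups compared, and none of these differences was tested, since each group is 1 library. The log2 ratio of SMA over Con in cycling against non-cycling OPC-rule cells was 0.63 against -1.44 for Rgs5, a pericyte gene, 1.76 against -0.82 for the chemokine gene Ccl3, -1.89 against 0.85 for Ctla2a and 0.12 against -0.12 for Tubb4b, a tubulin gene. The ratio of cycling over non-cycling cells in SMA against Con was -0.19 against 0.50 for Cdkn1a, -0.40 against 0.43 for Myc, a growth regulator, and -0.15 against 0.16 for Cspg4, the NG2 proteoglycan gene, which the rule used. For genes of other cell types it was 0.76 against -2.19 for Col3a1 and 0.71 against -2.60 for Col1a1, collagen genes of fibroblasts, 1.55 against -0.52 for Rgs5, 0.29 against -0.56 for P2ry12, a microglial receptor gene, 0.96 against -1.61 for Ccl3, 0.72 against -1.19 for Ccl4, 1.28 against -1.34 for Tnf and -1.66 against 1.09 for Ctla2a.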

How the results depend on the processing

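Ratios were recomputed with other cell filters, weights, UMI minimums and subsets of members. Of 41 single genes, 32 kept their sign under each alternative that gave a value, and 9 did not. Among members with a Y UMI and no Xist UMI the p53 median was -0.06 (0.13 over the genes tested in all members, an alternative chosen after seeing the data), and Fn1 (1.17), Pglyrp1 (2.17), Cldn5 (2.55), Ctla2a (0.43), Isg20 (0.17) and Phlda3 (-0.06) turned direction. Among members with no UMI of the 6 limited genes Pglyrp1 (0.09), Ctla2a (0.19) and Spp1 (-0.69) turned, as did Gpr17 (0.20) and Smn1 (-0.02), which lay near 0, and with at most 5% haemoglobin UMIs Isg20 (0.53); the cause was not tested. Genes past 1.5-fold higher in SMA numbered 451 at a minimum of 50 UMIs and 72 at 300, and those lower 342 and 32, since fewer genes enter. Those lower numbered 260 without the upper gene limit and 222 with totals that leave out haemoglobin and mitochondrial genes. The cycling share in SMA and Con was 13.0% and 11.8% at 1000 UMIs, 23.7% and 24.1% at 4000, 26.1% and 27.7% unthinned and 13.7% and 13.5% at 5 or more rule-gene UMIs, which follows from depth and cut. Genes past 2-fold in both libraries between cycling and non-cycling cells numbered 138 higher and 11 lower after thinning and 164 and 15 at 300 UMIs. Without the upper gene limit, members over astrocyte-rule cells stood at 1.5 (SMA) and 1.85 (Con) for Ccnd1 and 1.02 (Con) for Ccnd3. The S phase sum at 21 or more over 3 to 5 rule-gene UMIs was -0.92 in SMA and -1.02 in Con with thinned bins, where the same cut picks fewer cells. No paired analysis was possible because each group is 1 library and no test was made. Depth limits the ratios in subsets of members, several of which rest on few UMIs.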
